A study of Mus musculus with 15 samples.

Results

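The nuclear-encoded subunits of the mitochondrial respiratory chain and ATP synthase were followed in mouse CD8+ T cells before and after antigen stimulation. Genes were taken by name from the count tables: symbols of the Nduf (A, B, C, S and V series), Sdh, Uqcr, Cox (4 to 8) and Atp5 families, without pseudogenes and without genes of the mitochondrial chromosome. This gave 82 of 17493 genes. Complex I (NADH dehydrogenase) had 35 of them, complex II (succinate dehydrogenase) 4, complex III (ubiquinol-cytochrome c reductase) 8, complex IV (cytochrome c oxidase) 18 and complex V (ATP synthase) 17. Ndufa4 and Ndufa4l2 carry a complex I name and were placed in complex IV, where the Ndufa4 protein is now known to sit. Atp5s and Atp5sl were taken by name only and are not structural subunits of the enzyme.

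In OT-I mice the T cell receptor is a transgene that recognises an ovalbumin peptide. The strain is C57BL/6-Tg(TcraTcrb)1100Mjb/Crl, also labelled OT-1, the mice were female, and the tissue was spleen with lymph nodes. Cells of all 15 libraries have this receptor, and there are 3 libraries in each of 5 groups. The groups are the unstimulated cells (0 h), IF 8 h, IF 22 h, DC 8 h and DC 22 h, named by stimulus and time. IF stands for immunofilaments, synthetic filaments bearing MHC loaded with the SIITFEKL peptide together with interleukin-2, at 5 ng/ml. DC stands for 20000 dendritic cells, named by the labels as Flt-3Ligand dendritic cells, pulsed with the same peptide. Wells held 50000 T cells, and viable CD8+ CD103- cells were sorted before the RNA was extracted. No unstimulated culture of 8 h or 22 h was among the samples, so time in culture and stimulation cannot be told apart in comparisons with 0 h. Titles number the libraries of each group Don1 to Don3 without saying what Don stands for or whether the libraries came from separate animals, and p-values measure only the spread between these libraries.

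Complexes I to IV pass electrons from NADH and succinate to oxygen and, except complex II, pump protons across the inner mitochondrial membrane. Complex V uses the proton gradient to make ATP. Most subunits are encoded in the nucleus and a few by the mitochondrial chromosome, so assembly needs both genomes. Resting T cells rely largely on this pathway, and activation is known to raise glycolysis and, later, mitochondrial mass.

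Library totals ran from 2892874 to 19806730 counts, and the 82 genes took 1.57% to 2.18% of them. Of the 82 genes, 77 had enough counts to be tested beside 10831 genes in all, and the text below gives normalised read counts in CPM (counts relative to the library total and set to a common scale by TMM, the trimmed mean of M values). The 8 T cell markers had counts in every library, and their summed level was 10635 to 11528 CPM in unstimulated libraries against 4820 to 7471 CPM in stimulated ones. Cd4 was at 0 in all libraries but 1 of IF at 22 h. The summed level of 13 dendritic cell markers, such as Cd74 and Fscn1, was 468 to 1243 CPM in unstimulated libraries, 126 to 369 after IF and 733 to 1077 after DC at 8 h, and 304 to 533 and 375 to 543 at 22 h. Of these 13 markers, 9 had a count in every unstimulated library and 6 in every IF 8 h library. Zbtb46 had no count in any library of either group, and Batf3 had none after IF for 8 h. Whether other cells contributed to the values below was not tested, and in bulk RNA a change in cell makeup cannot be told apart from a change in RNA per cell.

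Promoters are shown for 4 of the 8 genes that passed the test below, since they differ in the motifs of nuclear factors known for this gene class. The sequences run 250 bases up to the start site (RefSeq, build GRCm38.p6), 5′ to 3′ on the gene's strand. Capitals mark matches on either strand to the NRF1 motif GCGCANGCG or the ETS/GABP motif CCGGAAG (reverse complement CTTCCGG). Cox6a1 lies at chr5:115348959-115349208 (minus strand), Atp5h at chr11:115419920-115420169 (minus), Atp5e at chr2:174464102-174464351 (minus) and Ndufv3 at chr17:31519865-31520114 (plus).
Cox6a1: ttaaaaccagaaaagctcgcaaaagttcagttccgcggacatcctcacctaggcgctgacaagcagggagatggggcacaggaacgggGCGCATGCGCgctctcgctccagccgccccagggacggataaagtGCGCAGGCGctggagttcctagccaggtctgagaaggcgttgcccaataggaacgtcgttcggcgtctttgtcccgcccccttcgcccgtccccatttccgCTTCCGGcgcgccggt
Atp5h: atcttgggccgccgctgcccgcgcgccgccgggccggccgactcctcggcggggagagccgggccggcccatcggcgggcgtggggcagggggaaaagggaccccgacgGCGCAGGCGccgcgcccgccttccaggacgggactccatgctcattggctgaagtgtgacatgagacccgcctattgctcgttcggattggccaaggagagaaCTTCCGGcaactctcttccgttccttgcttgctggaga
Atp5e: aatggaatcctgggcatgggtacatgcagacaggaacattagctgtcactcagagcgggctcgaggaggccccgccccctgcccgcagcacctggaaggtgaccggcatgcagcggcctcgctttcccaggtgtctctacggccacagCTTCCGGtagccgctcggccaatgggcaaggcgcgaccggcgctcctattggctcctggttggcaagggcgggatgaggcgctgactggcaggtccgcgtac
Ndufv3: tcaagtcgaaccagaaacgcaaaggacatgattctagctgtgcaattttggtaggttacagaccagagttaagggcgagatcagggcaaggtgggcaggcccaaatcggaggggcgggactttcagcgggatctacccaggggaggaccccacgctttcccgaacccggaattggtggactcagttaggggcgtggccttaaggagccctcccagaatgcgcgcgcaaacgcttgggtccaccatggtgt
Cox6a1 has 3 NRF1 matches, of which an opposite pair overlaps, and 1 ETS/GABP match. Atp5h has 1 of each, Atp5e has an ETS/GABP match alone, and Ndufv3 has neither. In windows of 300 bases (250 before to 50 after the start), available for 68 of the 82 genes, the NRF1 motif was found in 27.9%, against 11.2% of the 12692 count-table genes with a window. The shares were 22.1% against 14.7% for ETS/GABP and 23.5% against 7.78% for the YY1 motif AANATGGC. They were 2.94% against 0.276% for the ERR motif TCAAGGTCA and 41.2% against 56.1% for the SP motif GGGCGG. By complex, NRF1 matches ranged from 7.69% of 13 windows in complex IV to 66.7% of 3 in complex II. Such letters describe the windows and do not show binding.

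With TMM scaling no subunit gene passed edgeR's test as higher than in unstimulated cells, and 8 passed as lower in at least 1 of the 4 stimulated groups. After IF for 8 h 6 of the 77 tested genes were lower (edgeR quasi-likelihood test, adjusted p under 0.05), which is 7.79% of them against 7.76% of all genes called in either direction and 4.72% called lower. After DC for 8 h 2 were lower, against 6.82% of all genes called and 4.07% called lower. After IF for 22 h 1 was lower (6.08% of all genes called, 3.44% lower), and after DC for 22 h 4 were lower (7.76% called, 4.35% lower). Against all genes called lower, the share of the subunits called lower was higher after IF for 8 h (7.79%) and DC for 22 h (5.19%) and lower after DC for 8 h (2.6%) and IF for 22 h (1.3%). These differences in share were not tested. The 4 comparisons use the same unstimulated libraries. The 95% interval of the fold change lay within 2-fold of no change for 69, 70, 71 and 72 of the 77 genes, in the order given.

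The direction of the set depends on the scaling of the libraries. With TMM the median log2 fold change of the 77 genes was -0.20 after IF and -0.09 after DC for 8 h, and 0.02 and -0.10 at 22 h, against medians of 0.02, 0.04, 0.01 and 0.04 over all genes. With library size alone the medians of the 77 genes were 0.04, 0.17, 0.22 and 0.23, while those of all genes shifted to 0.26, 0.30, 0.22 and 0.37. Calls under that scaling were 0, 1 lower (Ndufv3), 2 higher (Atp5j, Sdha) and 3 higher (Atp5f1, Atp5j, Ndufb9), in the same order. That is 0%, 1.3%, 2.6% and 3.9% of the 77, against 10.3%, 9.96%, 7.74% and 14.6% of all genes. Levels of single genes, and which libraries lay above or below others, are given on the TMM scale alone. TMM gave the unstimulated libraries factors of 0.857 to 0.872, and the 12 others 0.951 to 1.11.

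**Figure D1:**
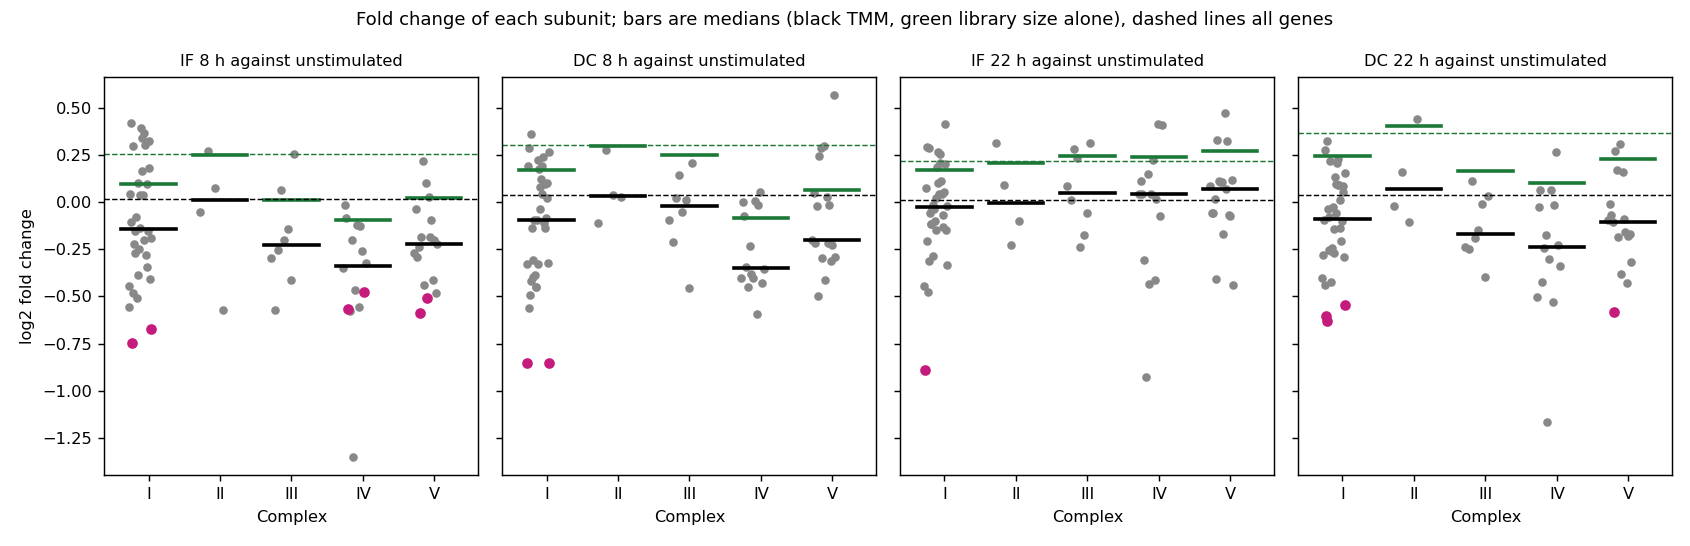
Each dot is the log2 fold change (TMM scaling) of 1 tested gene against unstimulated cells, by complex and in 4 panels for the stimulated groups; magenta dots passed the test. Solid bars are the medians of each complex and dashed lines the medians of all genes, in black for TMM and green for library size alone. Bars of complexes I, III, IV and V lie below the all-gene line under either scaling at 8 h and after DC for 22 h. That of complex IV is lowest.

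Complex IV lay lowest of the 5 complexes in the same 3 comparisons. Its 14 tested genes had a median log2 fold change of -0.34 after IF for 8 h, with all 14 below 0, and of -0.35 after DC for 8 h, with 11 below 0. At 22 h the median was 0.04 after IF and -0.24 after DC. Set against the median of all genes, these medians were -0.35, -0.39, 0.03 and -0.27 with TMM and -0.35, -0.39, 0.02 and -0.27 with library size alone. The 14 include Cox7a2l and 2 tissue forms with few counts, Cox6a2 and Cox6b2. The other 11 had medians of -0.26, -0.23, 0.05 and -0.18 with TMM. With TMM, the medians of complex V were -0.22, -0.20, 0.07 and -0.10, and those of complex II lay between -0.00 and 0.07. Complex III gave -0.23, -0.02, 0.05 and -0.17, and complex I -0.14, -0.09, -0.03 and -0.09. With library size alone the medians of complexes I, III and V were above 0 in all 4 comparisons, and those of complex IV were -0.09, -0.08, 0.24 and 0.10. Set against the median of all genes, complexes I, III and V were at -0.16, -0.24 and -0.24 after IF for 8 h with TMM. With library size alone they were at -0.16, -0.24 and -0.23. After DC for 8 h they were at -0.13, -0.06 and -0.24 under either scaling. After DC for 22 h they were at -0.12, -0.21 and -0.14 with TMM and at -0.12, -0.20 and -0.14 with library size alone. After IF for 22 h they lay between -0.05 and 0.06 under either scaling.

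Summed over its tested genes, complex IV stood at 4737, 4860 and 4629 CPM in the unstimulated libraries, at 3701, 3472 and 3855 after IF and at 3637, 3889 and 3765 after DC for 8 h. At 22 h the sums were 3747, 5220 and 5209 after IF and 3824, 4299 and 3553 after DC. Every library of IF 8 h, DC 8 h and DC 22 h was below every unstimulated library, at 77.5%, 79.4% and 82.1% of the unstimulated mean on the TMM scale. With library size alone these means were 91.6%, 95.4% and 103.3%, so that DC 22 h turned direction, DC 8 h overlapped the unstimulated libraries and IF 8 h alone of the 3 groups lay below them. Those 3 groups overlapped one another, and IF 22 h was split: replicate 1 was as low as they were, while replicates 2 and 3 exceeded the unstimulated range. Complex V sums were 7026 ± 250 CPM unstimulated (SD, n = 3), 5882 ± 156 and 6359 ± 680 at 8 h (IF, DC), and 6987 ± 1011 and 6428 ± 1090 at 22 h. On this scale only its IF 8 h libraries all lay below the unstimulated range, and with library size alone they overlapped it. With TMM, in complexes I, II and III no stimulated group lay wholly above or wholly below the unstimulated libraries. With library size alone all 12 stimulated libraries lay above the unstimulated ones in complex II, as did IF 8 h in complex I and DC 8 h and IF 22 h in complex III. These sums are weighted to genes with many counts and were given no test.

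**Figure D2:**
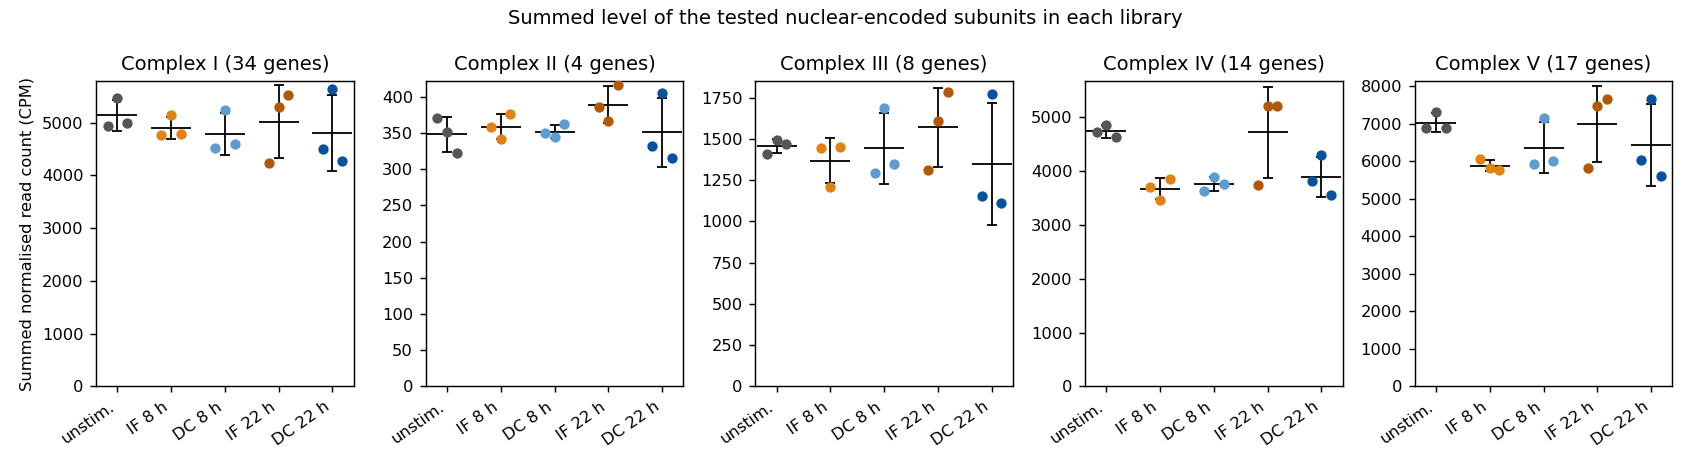
Summed CPM (TMM scaling, linear axis from 0) of the tested genes of each complex in the 15 libraries; dots are libraries in replicate order, the long dash is the group mean and the bar its SD (n = 3). In complex IV the unstimulated libraries lie at 4629 to 4860 CPM, and those of IF 8 h, DC 8 h and DC 22 h at or below 4299, a separation that with library size alone holds for IF 8 h only.

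The 4 called genes of complex I are accessory subunits, the proteins around the catalytic core, which make up 27 of its 34 tested genes. These 27 subunits had median log2 fold changes of -0.15, -0.14, -0.04 and -0.10 in the 4 comparisons (IF 8 h, DC 8 h, IF 22 h, DC 22 h), with 17, 18, 16 and 19 of them below 0. These medians are those of TMM scaling, and library size alone puts the median of complex I above 0.

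Ndufv3, an accessory subunit of the NADH-oxidising module, was called in 3 of the 4 comparisons. It stood at 226, 244 and 237 CPM in the unstimulated libraries. After 8 h it was at 134, 139.6 and 169.8 CPM with IF and at 133, 120.3 and 138 with DC. After 22 h it was at 167, 184 and 209.7 CPM with IF and at 154, 187 and 143 with DC. All 12 stimulated libraries were below all 3 unstimulated ones. The log2 fold change was -0.85 ± 0.16 (SE; adjusted p = 0.0031) after DC for 8 h, and this call held in all 16 alternatives, with adjusted p up to 0.0275. It was -0.67 ± 0.16 after IF for 8 h (adjusted p = 0.0157) and -0.55 ± 0.16 after DC for 22 h (adjusted p = 0.0393), while IF at 22 h gave -0.33 (adjusted p = 0.236). The IF 8 h call was lost in 5 of 15 alternatives and the DC 22 h call in 10 of 16, the replicate block among them. The last 60-base windows of its transcripts match no other gene in the GENCODE vM21 annotation.

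Ndufa10, an accessory subunit of the membrane arm, was at 66.1, 74.6 and 68.2 CPM unstimulated. It was at 41.9, 50.7 and 49.8 CPM after IF and at 32.1, 40.4 and 43.2 after DC for 8 h. Its level was 46.2, 31.9 and 34.7 CPM with IF and 54.1, 66.9 and 51 with DC at 22 h. Here the 22 h groups were apart: every IF library was below every DC library, and DC replicate 2 reached the unstimulated range. Against unstimulated cells the log2 fold change was -0.85 ± 0.19 after DC for 8 h (adjusted p = 0.0113) and -0.89 ± 0.19 after IF for 22 h (adjusted p = 0.0098). It was -0.55 after IF for 8 h (adjusted p = 0.0895) and -0.28 after DC for 22 h (adjusted p = 0.402).

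Ndufa2, a small subunit of the matrix arm, had 210.2, 205 and 166 CPM unstimulated and 116, 118 and 113 after IF for 8 h. It had 128, 161 and 126 CPM after DC for 8 h, 105, 155 and 159 after IF for 22 h and 124, 128 and 131 after DC for 22 h. All 12 stimulated libraries were below the unstimulated ones, and the change passed after IF for 8 h (-0.75 ± 0.18, adjusted p = 0.0162) and after DC for 22 h (-0.60 ± 0.17, adjusted p = 0.0410). Ndufa2 lost its IF 8 h call in 4 of 6 fits that left 1 library out, and its DC 22 h call in all 6. Its exons share 66 bases with Tmco6 on the opposite strand, and the use of strand in counting is not given in the sources used here.

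Ndufa3, a small membrane subunit, was at 300.5, 303 and 289 CPM unstimulated, 227, 214 and 199.6 after IF for 8 h and 198, 232 and 239 after DC for 8 h. With 22 h of IF it was at 203, 255 and 262 CPM, and with DC at 181, 189.8 and 207. Again no stimulated library reached the unstimulated range, and in edgeR's test with TMM it passed after DC for 22 h alone (-0.63 ± 0.14, adjusted p = 0.0129). After IF for 8 h it missed the threshold at -0.48 ± 0.14 (adjusted p = 0.0527), and DESeq2 called it lower there (adjusted p = 0.00681) and after DC for 8 h (adjusted p = 0.0221).

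At the other end of complex I stood Ndufa5, an accessory subunit of the matrix arm, with the highest median over the 4 comparisons (0.31). It had 32.7, 32.0 and 37.5 CPM unstimulated, 38.0, 43.4 and 44.2 after IF for 8 h and 38.5, 55.9 and 36.7 after DC for 8 h. At 22 h it had 36.2, 41.0 and 47.3 CPM with IF and 41.2, 58.1 and 28.7 with DC. The groups overlap except for IF at 8 h, and the smallest adjusted p was 0.425. Ndufs5, an accessory subunit, had at most 2 counts in any library and was not tested. In vM21, 39.1% of the 60-base windows at its transcript ends are shared with BC002163.

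Among the complex IV subunits the test was passed by Cox6a1 and Cox8a, both after IF for 8 h. Cox6a1, the widely expressed form of subunit 6A, was at 574, 573 and 545 CPM unstimulated and at 386, 367 and 390.1 after IF for 8 h. It was at 438, 476 and 421 CPM after DC for 8 h, 398, 453 and 519 after IF for 22 h and 415, 453 and 394 after DC for 22 h. No stimulated library reached the unstimulated range, and the log2 fold changes were -0.57 ± 0.13 (IF 8 h, adjusted p = 0.0160), -0.34 (adjusted p = 0.140), -0.30 (adjusted p = 0.199) and -0.42 (adjusted p = 0.0606). Cox8a, a small subunit, was at 893, 935 and 965 CPM unstimulated, 668, 632 and 710.2 after IF for 8 h and 636, 741 and 695 after DC for 8 h. After 22 h the values were 783, 943 and 933 CPM with IF and 776, 929 and 679.7 with DC. The 8 h libraries were all below the unstimulated range (IF -0.47 ± 0.14, adjusted p = 0.0464, and DC -0.43 ± 0.14, adjusted p = 0.0715), and at 22 h 3 libraries were back within it. The IF call was lost in all 6 fits that left 1 library out. It was also lost in 4 of 9 other alternatives, among them a replicate block (adjusted p = 0.0537).

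Cox4i1, the common form of subunit 4, and Ndufa4 shared the split of the IF 22 h group. Cox4i1 was at 637, 635 and 545 CPM unstimulated, 435, 472 and 519 after IF for 8 h and 439.5, 416 and 517 after DC for 8 h. At 22 h it was at 451, 738 and 686 CPM with IF and at 434, 431 and 418 with DC. Every DC 22 h library was below every other library of 0 h or IF 22 h. Its exons share 154 bases with Emc8 on the opposite strand. Ndufa4 was at 550.2, 649.7 and 504 CPM unstimulated, 462, 412 and 488 after IF for 8 h and 432, 463 and 439 after DC for 8 h. At 22 h it was at 442, 889 and 930.1 CPM with IF and at 433, 542 and 374 with DC, so that IF replicates 2 and 3 were the highest of all 15 libraries.

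Tissue forms of complex IV subunits were rare or absent. Cox4i2, Cox7b2 and Ndufa4l2 had 2, 1 and 1 counts over all libraries and Cox7a1 39, and none was tested; Cox8b and Cox8c have no row. Cox6a2, the heart and muscle form of subunit 6A, had 418 counts in all. Its counts per library were 57, 0 and 24 unstimulated, 39, 0 and 7 after IF for 8 h, 28, 2 and 50 after DC for 8 h, 27, 7 and 63 after IF for 22 h and 49, 29 and 36 after DC for 22 h. Replicate 2 was the lowest of its group on counts in each of the 5 groups, and in CPM in all but DC 22 h (5.58, 3.21 and 3.08). Its exons share 70 bases with Itgad on the opposite strand, and none of the 4 comparisons passed (smallest adjusted p 0.703). Cox6b2, the testis form of subunit 6B, had 1 to 46 counts a library and log2 fold changes of -1.35 ± 0.78, -0.38, -0.43 and -1.17 ± 0.74, with adjusted p of at least 0.324.

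Of the widely expressed partners, Cox6a1, Cox8a, Cox4i1 and Ndufa4 are described above. Cox6b1 was at 245, 251 and 249 CPM unstimulated and between 187 and 309.9 in the stimulated libraries. Cox7a2 ran from 94.7 to 153 CPM and Cox7b from 182 to 276 over the 15 libraries, with unstimulated values of 104 to 121 and of 214 to 227. Cox7c, the gene of complex IV with the highest median over the 4 comparisons (0.16), was at 14.2, 23.9 and 24.7 CPM unstimulated and at 23.7, 30.5 and 29.0 after IF for 22 h (adjusted p = 0.340). In vM21, 37.2% of its windows match other loci. Cox6b1, Cox7a2, Cox7b and Cox7c did not pass the test in any comparison.

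Cox7a2l was at 655, 649 and 620.3 CPM unstimulated and at 437, 435 and 437 after IF for 8 h. It was at 479, 302 and 493 CPM after DC for 8 h, 466, 556 and 425 after IF for 22 h and 499, 251 and 584 after DC for 22 h. All 12 stimulated libraries were below the unstimulated ones. Replicate 2 was far below the other libraries in both DC groups, and the log2 fold changes of -0.56, -0.60, -0.41 and -0.53 did not pass edgeR's test with TMM over all groups (adjusted p 0.18, 0.164, 0.366 and 0.211). In edgeR's fit of only the groups compared Cox7a2l was called lower after IF for 8 h (-0.55, adjusted p = 0.00286). Without the low-count filter edgeR called it lower after DC for 8 h (-0.59, adjusted p = 0.0403).

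In ATP synthase the test was passed by Atp5e, which encodes the epsilon subunit of the central stalk, and Atp5h, subunit d of the peripheral stalk. Atp5e was at 461, 426 and 417 CPM unstimulated, 318, 292 and 256 after IF for 8 h and 269, 350.4 and 304 after DC for 8 h. After 22 h the levels were 298, 339.5 and 345 CPM with IF and 265, 329 and 277 with DC. All 12 stimulated libraries were below the unstimulated range, with log2 fold changes of -0.59 ± 0.15 (IF 8 h, adjusted p = 0.0236) and -0.58 ± 0.15 (DC 22 h, adjusted p = 0.0237). DC at 8 h gave -0.50 (adjusted p = 0.0540) and IF at 22 h -0.41 (adjusted p = 0.121). Atp5h was at 1394, 1552 and 1478 CPM unstimulated and at 985, 1119 and 1004 after IF for 8 h (-0.51 ± 0.13, adjusted p = 0.0219). It was at 1107, 999 and 1219 CPM after DC for 8 h, 1139, 1442 and 1354 after IF for 22 h and 1159.5, 1145 and 1094 after DC for 22 h. IF 22 h replicate 2 was the only stimulated library within the unstimulated range, and 53.6% of the gene's windows match the loci Gm10250 and Gm14472.

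**Figure D3:**
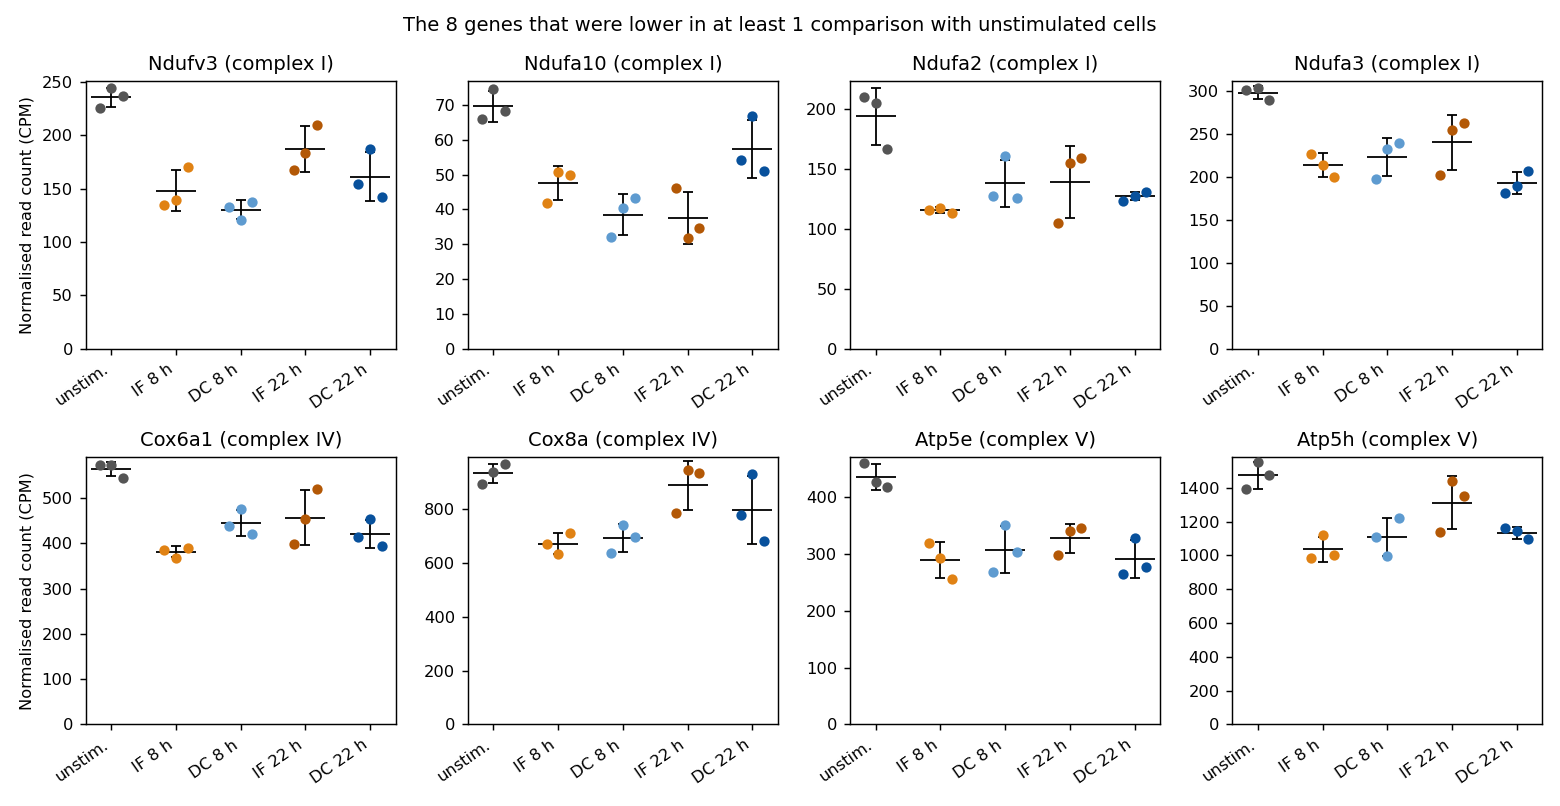
CPM (TMM scaling, linear axis from 0) of the 8 genes that passed the test as lower in at least 1 stimulated group; dots are libraries in replicate order, with the group mean and SD (n = 3). In Ndufv3, Ndufa2, Ndufa3, Cox6a1 and Atp5e all 12 stimulated libraries lie below the 3 unstimulated ones.

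The 3 genes for the c subunit, which forms the rotor ring and has the same mature protein from each gene, are given with their ratio. Atp5g2 was at 865, 879.8 and 831 CPM unstimulated, 690.1, 645 and 561 after IF for 8 h and 691, 657 and 750.1 after DC for 8 h. The 22 h values were 708, 1019.8 and 1042 CPM with IF and 753, 824 and 686 with DC. Atp5g3 was at 801, 919 and 826 CPM unstimulated, 1069.9, 882 and 781 after IF for 8 h and 933, 1387 and 806 after DC for 8 h. It was at 842, 905 and 994 CPM after IF for 22 h and at 872, 1441 and 846 after DC for 22 h, highest in replicate 2 of both DC groups. Atp5g1 ran from 149 to 344 CPM, with its 2 highest values in the same libraries. The ratio of Atp5g3 to Atp5g2 counts, which no scaling of the library changes, was 0.926 to 1.05 unstimulated. It was 1.37 to 1.55 after IF for 8 h and 1.08 to 2.11 after DC for 8 h, above the unstimulated range in every library, and 0.887 to 1.19 and 1.16 to 1.75 at 22 h. No c subunit gene passed edgeR's test with TMM over all groups against unstimulated cells. Atp5g2 passed as lower after IF for 8 h with DESeq2 (-0.45, adjusted p = 0.0392) and in edgeR's fit of only those 2 groups (-0.44, adjusted p = 0.0177). The ratio was not tested. In vM21, 49.8% of the windows of Atp5g2 and 36.6% of those of Atp5g1 match other loci.

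**Figure D4:**
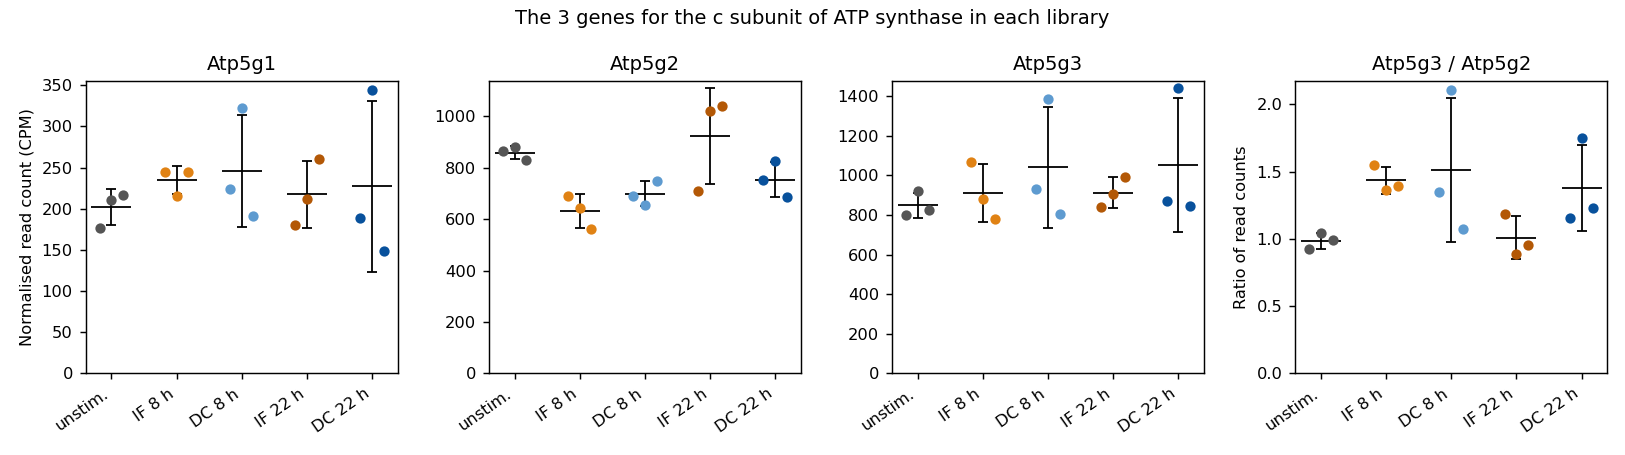
CPM (TMM scaling) of Atp5g1, Atp5g2 and Atp5g3 and the ratio of Atp5g3 to Atp5g2 counts in the 15 libraries, on linear axes from 0, with the group mean and SD (n = 3). The ratio is 0.926 to 1.05 in the unstimulated libraries and 1.37 to 1.55 after IF for 8 h, and replicate 2 is highest in both DC groups.

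Other members of complex V spanned both directions. Atp5f1, subunit b of the peripheral stalk, had the highest median over the 4 comparisons (0.26), with 90.9, 88.7 and 87.7 CPM unstimulated and 85.1, 69.6 and 80.6 after IF for 8 h. It was at 94.8, 119 and 102 CPM after DC for 8 h, 98.4, 113 and 124 after IF for 22 h and 106, 124 and 93.4 after DC for 22 h. The IF 8 h libraries were below and all other stimulated libraries above the unstimulated ones, with adjusted p against unstimulated cells of at least 0.264. Its exons share 337 bases with Wdr77 on the opposite strand. Atp5j, the coupling factor 6 subunit, had the highest fold change of the 77 genes after IF for 22 h (194, 237 and 238 CPM against 159, 169.5 and 155), a difference of 0.47 ± 0.15 that did not pass (adjusted p = 0.0813). Its exons share 397 bases with Gabpa on the opposite strand.

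Complexes II and III gave no call in edgeR's test with TMM over all groups. Other settings called Uqcrh lower after DC (adjusted p = 0.023) and IF (adjusted p = 0.047) for 8 h with DESeq2, Uqcr11 lower after IF for 8 h in edgeR's fit of only those 2 groups (adjusted p = 0.0381), and Sdha higher after IF for 22 h with library size alone. Uqcrq passed as higher with IF than with DC at 22 h without replicate 2 of both DC groups (adjusted p = 0.0385). Sdhb, the iron-sulfur subunit of succinate dehydrogenase, had the highest median in complex II (0.22), with 76.2, 73.2 and 68.4 CPM unstimulated, 88.1, 96.5 and 78.2 after IF for 8 h and 81.5, 100.2 and 82.7 after DC for 8 h. At 22 h it had 69.8, 75.8 and 86.8 CPM with IF and 72.8, 112 and 58.9 with DC, and adjusted p was at least 0.470. The membrane anchor Sdhd was near the limit of counting, at 4 to 81 counts a library. In complex III Uqcrq, a small subunit, ran highest (median 0.23), with 398, 413 and 440.4 CPM unstimulated and 322 to 625 in the stimulated libraries. Uqcrh, the hinge protein that docks cytochrome c1, ran lowest (-0.41). It was at 218, 272 and 241 CPM unstimulated, 183, 192 and 174 after IF for 8 h, 184, 151 and 198 after DC for 8 h, 207, 259 and 237 after IF for 22 h and 181, 173 and 202 after DC for 22 h. Its smallest adjusted p in edgeR's test with TMM was 0.0852, after DC for 8 h.

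No subunit passed edgeR's test between IF and DC at 8 h, against 0.665% of all genes called. DESeq2 called 0 as well, against 1.8% of all genes. Unadjusted p in edgeR's test was under 0.05 for 2 higher and 2 lower with IF, 5.19% of the 77 against 8.27% of all genes. The smallest p values belonged to Atp5f1, lower with IF (-0.43 ± 0.16, adjusted p = 0.435), and Ndufb2, a membrane arm subunit. Ndufb2 was at 47.3, 65.6 and 73.7 CPM with IF and 39.1, 42.2 and 46.0 with DC (0.55 ± 0.23, adjusted p = 0.507), and its exons share 146 bases with Braf on the opposite strand. The 95% interval of the IF-DC difference was within 2-fold for 72 of 77 genes.

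At 22 h none passed between IF and DC either (2.43% of all genes called; unadjusted p under 0.05 for 6 higher and 1 lower with IF, 9.09% against 15.3% of all genes; 3 with DESeq2, 3.9% against 5.2%). Ndufa4 came nearest (0.75 ± 0.22, adjusted p = 0.0981), then Cox4i1 (0.55 ± 0.17, adjusted p = 0.108) and Ndufa10 (-0.61 ± 0.19, adjusted p = 0.109). This comparison turned on 1 library. Without IF 22 h replicate 1, 5 genes passed: Ndufa4 (1.02), Cox4i1 (0.74), Atp5k (0.72) and Atp5l (0.51) higher and Ndufa10 (-0.78) lower. That is 6.49% of the 77, against 6.81% of all genes called without that library. The IF 22 h libraries also differ in mitochondrial ribosomal RNA, which took 3.17% of counts in replicate 1, 0.179% in replicate 2 and 0.146% in replicate 3, against 1.82% to 4.49% in the other 12 libraries. Its part in the result was not tested. Without IF replicates 2 and 3 the median of the 77 genes went from 0.14 to -0.12.

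Between 8 h and 22 h no subunit passed edgeR's test with IF (1.12% of all genes called) or with DC (0.48%). DESeq2 called 1 with IF, 1.3% against 3.38% of all genes, and 0 with DC, against 1.94%. In edgeR's test unadjusted p was under 0.05 with IF for 16 higher and 0 lower (20.8% against 15% of all genes). With DC it was under 0.05 for 1 higher and 1 lower (2.6% against 9.03%). With IF, Atp5g2 came nearest (0.55 ± 0.15, adjusted p = 0.105), followed by Ndufa4 (0.73 ± 0.22, adjusted p = 0.134). Without IF 22 h replicate 1, Ndufa4 (1.01), Atp5g2 (0.71), Cox6c (0.68), Cox4i1 (0.59) and Atp5l (0.49) passed as higher at 22 h, 6.49% of the 77 against 4.85% of all genes. With DC the smallest p values were those of Ndufa10 (0.57 ± 0.19, adjusted p = 0.271) and Ndufb4 (-0.50 ± 0.22, adjusted p = 0.490). Ndufb4, a membrane arm subunit, was at 145, 186 and 117 CPM at 8 h and 88.4, 127 and 102 at 22 h. For no subunit did the contrast of IF with DC pass edgeR's test as different at 22 h from 8 h (0% of all genes called). DESeq2 called 0 as well, against 0.369% of all genes. Unadjusted p in edgeR's test was under 0.05 for 2 higher and 1 lower, 3.9% against 7.92%. Without IF 22 h replicate 1, Ndufa4 (0.99) and Ndufa10 (-1.08) passed that test, 2.6% against 2.5% of all genes.

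Replicates within a group differed as a whole. The median log2 ratio of the 77 genes to the unstimulated mean was -0.25 in replicate 1 of IF 22 h and 0.09 and 0.16 in replicates 2 and 3. It was -0.18 and -0.31 in replicates 1 and 3 of DC 22 h and 0.15 in replicate 2, and -0.19 and -0.15 against 0.08 in the same order at DC 8 h. In the IF 8 h group the 3 libraries were alike, at -0.20, -0.21 and -0.18. DC 22 h replicate 2 held the highest value of 18 of the 77 genes and replicate 3 the lowest of 20. Cycs (cytochrome c), the electron carrier between complexes III and IV, was at 1143 and 1434 CPM in replicate 2 of the DC groups and at 478 to 606 in their other libraries. Without both of these libraries the calls were 5 lower after DC for 8 h and 4 lower after DC for 22 h (6.49% and 5.19% of the 77, against 6.35% and 6.29% of all genes), an alternative chosen after seeing the data.

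**Figure D5:**
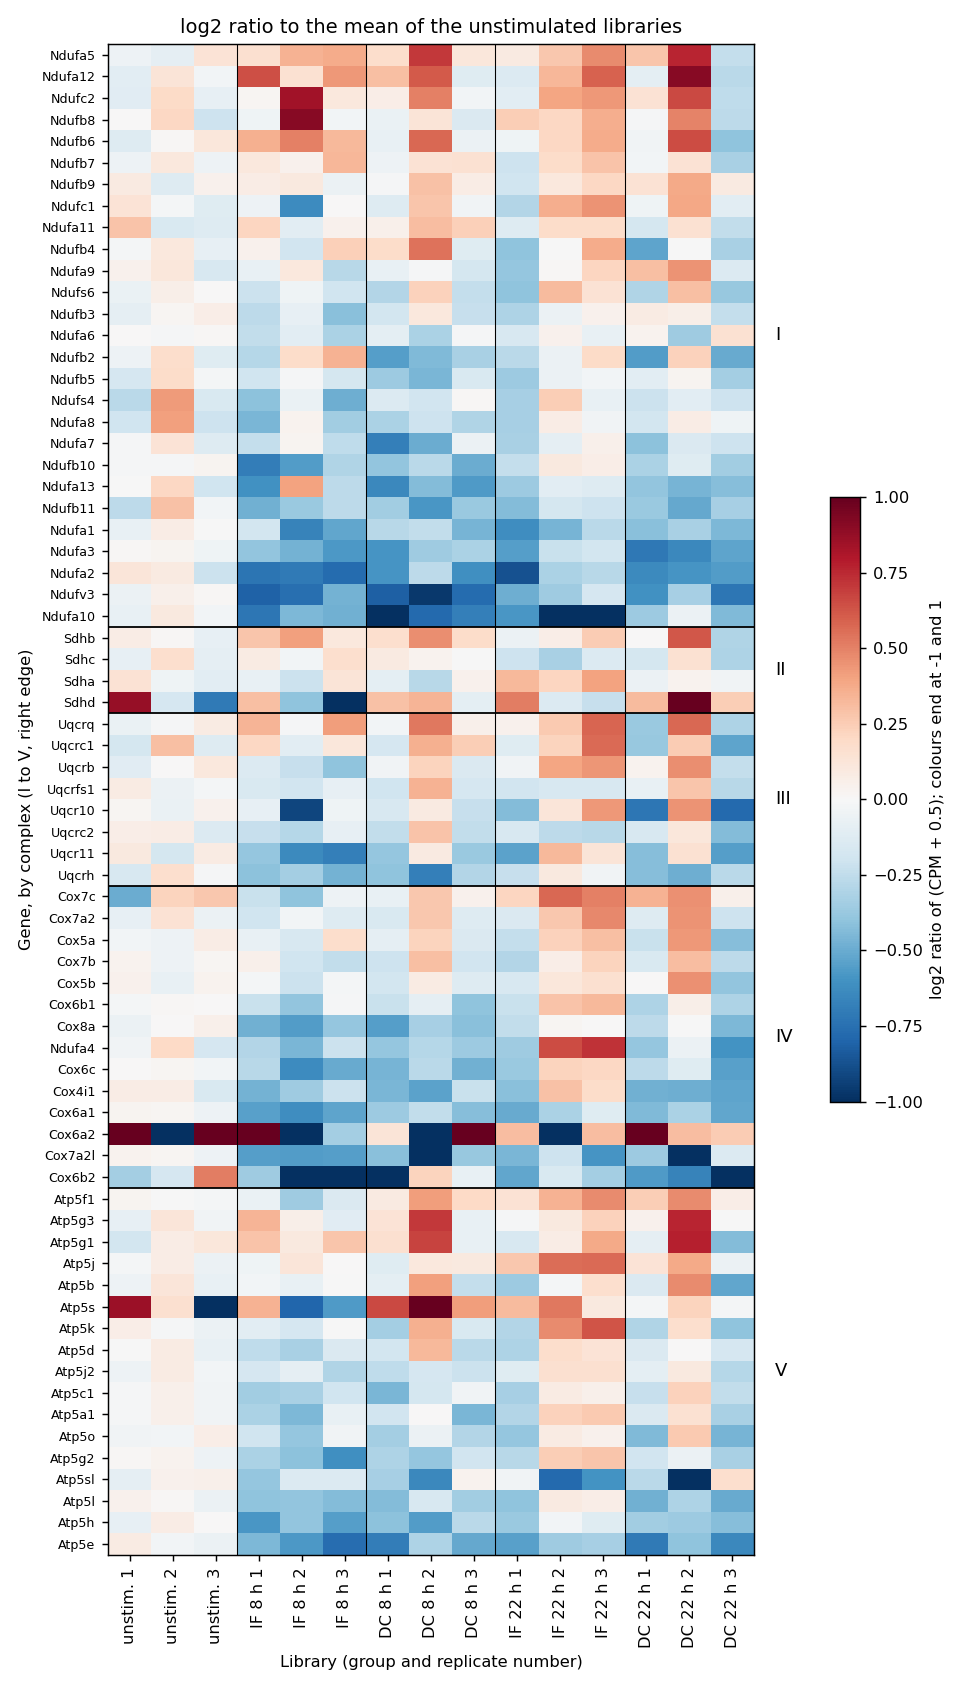
Each row is 1 tested accessory subunit of complex I or tested gene of complexes II to V, grouped by complex and ordered by the median log2 fold change over the 4 comparisons, and each column 1 library; colour is the log2 ratio of CPM + 0.5 to the unstimulated mean, ending at -1 and 1. Replicate 1 of IF 22 h and replicates 1 and 3 of DC 22 h are mostly blue, with medians over all 77 tested genes of -0.25, -0.18 and -0.31, and their other replicates mostly red.

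The calls against unstimulated cells were close to the threshold in most genes. After IF for 8 h the 6 calls became 2 when unstimulated replicate 1 was left out, 0 for replicate 2 and 3 for replicate 3. Omitting IF 8 h replicate 1, 2 or 3 left 1, 2 or 1. Those 6 fits called 0% to 3.9% of the 77 genes and 3.75% to 5.13% of all genes, against 7.79% and 7.76% with every library. After DC for 8 h the 2 calls became 1, Ndufv3, without unstimulated replicate 2 or without DC 8 h replicate 1. After IF for 22 h the call of Ndufa10 was lost without unstimulated replicate 2, IF replicate 2 or IF replicate 3 (0 calls each), and without IF replicate 1 there were 3, with Ndufa4 and Atp5j higher. After DC for 22 h the 4 calls became 0 without unstimulated replicate 1 or 2 or DC replicate 1, and 1 without unstimulated replicate 3 or DC replicate 3. In the same kind of fit the calls over all genes were 3.61% to 5.94% after DC for 8 h, 2.53% to 8.49% after IF for 22 h (8.49% without IF replicate 1) and 4.06% to 8.81% after DC for 22 h. DESeq2 called 12, 10, 5 and 8 genes in the 4 comparisons, of which 1, Atp5j after IF for 22 h, was higher. That is 15.6%, 13%, 6.49% and 10.4% of the 77, against 11.7%, 10.8%, 9.84% and 11.7% of all genes called by DESeq2.

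The 13 subunits encoded by the mitochondrial chromosome were called lower in some groups, with TMM scaling, the only one run for this list and the next. Of the 13, 3 were lower after IF for 8 h, 3 after DC for 8 h, 0 after IF for 22 h and 6 after DC for 22 h, and none was higher. These are 23.1%, 23.1%, 0% and 46.2% of the list, against 4.72%, 4.07%, 3.44% and 4.35% of all genes called lower. Their median log2 fold changes were -0.31, -0.39, -0.17 and -0.62. Passing in each of the 3 groups with calls were mtCo3, which encodes a core subunit of complex IV, and mtAtp8, which encodes a small ATP synthase subunit. mtAtp8 was at 368, 352 and 401 CPM unstimulated, 187, 146 and 178 after IF for 8 h and 176, 152 and 145 after DC for 8 h. At 22 h it was at 151, 294 and 262 CPM with IF and at 132, 130.3 and 129 with DC, again low in IF replicate 1. Between IF and DC at 22 h, mtNd3 (0.81), mtAtp6 (0.80) and mtAtp8 (0.85) were higher with IF. Differences between the mitochondrial and the nuclear lists were not tested.

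Of 49 tested assembly factors, 4 were called after IF for 8 h (8.16%, against 7.76% of all genes) and 2 (4.08%) in each of the other 3 groups, against 6.82%, 6.08% and 7.76%. Sdhaf1, which protects the iron-sulfur subunit of complex II, rose after IF for 8 h (0.80), DC for 8 h (1.49) and DC for 22 h (1.04). Sdhaf4 (listed as 1110058L19Rik), Cox20 and Cmc2 were lower after IF for 8 h at -1.24, -0.67 and -1.19. Cmc2 was lower after DC for 8 h (-1.18), Cox20 after DC for 22 h (-0.60), and Cox10 and Cox14 after IF for 22 h (-0.81 and -0.66). Cox20 was higher with IF than with DC at 22 h (0.70) and Sdhaf1 lower (-0.91). None of 12 tested regulators, among them Nrf1, Gabpa, Esrra, Tfam and Myc, passed against unstimulated cells, and Gabpb2 was lower with IF than with DC at 22 h (-0.89). Cycs gave 0.61, 0.61, 0.52 and 0.75 in the 4 comparisons and Cyc1, Ndufab1, Usmg5 and 2010107E04Rik, subunits that the name rule leaves out, between -0.43 and 0.57, and none of these 5 genes passed.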

How the data were processed

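Deposited tables hold raw counts per gene, unnormalized, for 15 libraries; per the labels' protocols these are adapted CEL-seq libraries (barcoded oligo-dT priming, in vitro transcription, NextSeq 500). The submitters' processing notes name BWA and mm10; the counting program, annotation, use of strand and use of molecular identifiers are not given in the sources used here, so a count need not be an independent molecule. Groups came from the labels. The genes, lists and tests were chosen with earlier results of these data known. Analysis used edgeR 4.0.16 (R 4.3.3, limma 3.58.1). Genes passed filterByExpr (minimum count 10, minimum total 15), libraries scaled by TMM, and 1 quasi-likelihood model with 5 group means fitted to all 15 libraries (10831 genes). P-values are two-sided, adjusted by Benjamini-Hochberg over all genes within each of 9 comparisons, threshold 0.05, prior count 0.125. The core subunits of complex I are not reported here one by one. Values were given for genes past the threshold, for the 2 smallest p where none passed, for the highest and lowest gene of each complex and for paralogs. The test was checked on simulated counts. Replicate numbers, which the labels do not define, were not used as pairs in the main model. Over all genes, the 3 correlations of deviations between same-numbered libraries were all over 0.1 only for DC 8 h with DC 22 h. Over the subunit genes this also held between unstimulated and IF 8 h. Deviations of 3 libraries from their mean depend on each other, so these correlations do not establish pairing. Alternatives were other scalings, filters, DESeq2 1.42.0, the compared groups alone, a replicate block, a threshold of 0.01 and libraries left out. Sharing of exons and of 60-base windows in the last 400 bases of transcripts was read from GENCODE vM21 (GRCm38), where 81 of the 82 symbols matched; 29 share exonic bases with another gene, 25 of them on the opposite strand.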

Additional observations from a re-analysis of the deposited data

How the results depend on the processing

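In the order IF 8 h, DC 8 h, IF 22 h and DC 22 h against unstimulated cells, 6, 2, 1 and 4 genes were called. All 13 calls were lower. With library size alone the counts were 0, 1 lower, 2 higher and 3 higher (10.3%, 9.96%, 7.74% and 14.6% of all genes), and the medians of the 77 genes were 0.0392, 0.17, 0.22 and 0.23. The 13 differences called with TMM stayed negative there and 1 still passed, while the 5 higher calls were of other genes. DESeq2 called 12, 10, 5 and 8 (11.7%, 10.8%, 9.84% and 11.7% of all genes), 3 between IF and DC at 22 h (5.2%) and 1 between the IF times (3.38%). Fits of only the groups compared called 14 after IF for 8 h, 2 after IF for 22 h and 0 after DC for 22 h, with 1299, 993 and 517 of all genes called against 840, 658 and 840. At an adjusted p of 0.01 the counts were 0, 1 and 0 for IF 8 h, DC 8 h and DC 22 h (2.47%, 2.83% and 3.09% of all genes). Without a low-count filter 2 were called after DC for 22 h (7.46% of all genes), and 1 each for IF against DC at 22 h (4.12%) and for IF at 22 h against 8 h (2.93%); with genes of at least 10 CPM 4 were called after DC for 8 h (9.64%). Without both IF 22 h libraries 2 and 3, 0 were called against unstimulated cells (0.833% of all genes), and the medians were -0.27 there, -0.12 against DC at 22 h and -0.0645 against IF at 8 h. That fit leaves IF at 22 h with 1 library, assumed to vary like the other groups. Without both DC libraries numbered 2, 5 were called after DC for 8 h (6.35% of all genes) and 1 between IF and DC at 22 h (3.11%). Leaving out 1 library at a time gave 0 to 3, 1 to 3, 0 to 3 and 0 to 3 calls in the 4 comparisons (3.75% to 5.13%, 3.61% to 5.94%, 2.53% to 8.49% and 4.06% to 8.81% of all genes), 0 to 5 for IF against DC at 22 h (0.805% to 6.81%), 0 to 5 for IF at 22 h against 8 h (0.215% to 4.85%) and 0 to 2 for the change of the IF-DC difference (0% to 2.5%). Fewer libraries leave fewer residual degrees of freedom. The causes of the other shifts were not tested.

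Over all genes, same-numbered libraries deviated together in 1 of 10 pairs of groups, DC 8 h with DC 22 h (r = 0.116, 0.399 and 0.238 for the deviations from group means), while in the other pairs of groups r ran from -0.189 to 0.115. Unmatched DC libraries reached similar values. DC 8 h replicate 3 with DC 22 h replicate 1 gave 0.117 (0.293 over the subunit genes), and DC 8 h replicate 1 with DC 22 h replicate 3 gave 0.107 (0.331). Over the subunit genes all 3 correlations of same-numbered libraries exceeded 0.1 between DC 8 h and DC 22 h (0.445, 0.725 and 0.632). They also did between unstimulated and IF 8 h (0.312, 0.389 and 0.245), where the replicate block lost the call of Cox8a. For DC at 22 h against 8 h, 0 of the 77 genes were called without a block (0.48% of all genes). The same held with the replicate block in the fit of all groups (0.452%). It also held with the block in a fit of the DC groups alone, added after seeing the data (1.63%, against 0% of all genes in that fit without the block). With the replicate block 5, 2, 1 and 3 of the 77 genes were called in the 4 comparisons with unstimulated cells (6.49%, 2.6%, 1.3% and 3.9%). The shares of all genes were 7.08%, 6.59%, 5.89% and 7.25%. In the other comparisons 0 of the 77 were called, against 0% to 2.26% of all genes. Direction reversed for none of the 13 single-gene differences in any alternative, while 86 of their values no longer passed and 116 did. With 3 libraries a group, their number limits what these comparisons can detect.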
